A study of Homo sapiens with 16 samples.

Results

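Genes of fatty acid synthesis and remodelling other than fatty acid synthase were examined in the HOXB13, HDAC1, HDAC3, open chromatin and H3K27ac maps of LNCaP and PC-3 prostate cancer cells. The 6 genes were ACLY, ACACA, SCD, ELOVL6, FADS1 and FADS2. They were covered by 5 windows of the hg19 genome, 1150 kb in all, with FADS1 and FADS2 sharing 1 window because they are neighbours. Every peak or region that overlapped a window was taken, whatever its height, which gave 479 of the 816313 peaks and regions in 12 lists. The windows were chr17:39970000-40140000 for ACLY, chr17:35390000-35820000 for ACACA, chr10:102050000-102180000 for SCD, chr4:110920000-111170000 for ELOVL6 and chr11:61520000-61690000 for FADS1 and FADS2.

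ATP citrate lyase, encoded by ACLY, splits citrate in the cytosol and so supplies the acetyl-CoA from which fatty acids are built, and which histone acetylation also uses. Acetyl-CoA carboxylase (ACACA) turns acetyl-CoA into malonyl-CoA, the committed step, and fatty acid synthase then makes palmitate. ELOVL6 lengthens palmitate, SCD puts the first double bond into saturated chains, and FADS2 and FADS1 desaturate polyunsaturated fatty acids. Most of these genes are targets of the SREBP transcription factors, and lipogenesis is often raised in prostate cancer. HOXB13 is a transcription factor of the homeobox family that marks prostate epithelium. HDAC1 and HDAC3 are class I histone deacetylases, and HDAC3 works in the NCOR/SMRT corepressor complexes.

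LNCaP is an androgen-sensitive and PC-3 an androgen-independent human prostate cancer cell line, and each group was 1 library. LNCaP cells were infected for 7 days with lentivirus. The control carried the pGIPZ vector with a control shRNA. The knockdown carried an shRNA against HOXB13 (shHOXB13). In the remaining LNCaP groups the HOXB13 shRNA was combined with a lentivirus for wild-type HOXB13 (WT) or for HOXB13 with the G84E substitution, a prostate cancer risk variant. All LNCaP groups were thus virus-infected, and the rescued groups carried the shRNA as well as an introduced HOXB13. HOXB13 ChIP-seq covered all 4 LNCaP groups, HDAC3 ChIP-seq and ATAC-seq (from 50000 cells) the control and the knockdown, and HDAC1 ChIP-seq the control. In PC-3, HOXB13 was mapped in pGIPZ control cells and H3K27ac, the histone acetylation typical of active regulatory DNA, in control and shHOXB13 cells. The HOXB13 antibody differed between the cell lines, so tag counts are not compared across them. H3K27ac in LNCaP (4 samples) was not analysed here.

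The 12 libraries held 13.5 M to 47.2 M tags. The value given for a peak is its normalized tag count, its tags expressed per 10000000 tags of the library. With 1 library per group there is no replicate error and no test between conditions. Intervals cover counting error, or the spread among peaks of 1 library, and not the spread between cultures. The lists were called without an input library, and they hold only peaks that passed the caller, so a site that was not called has no value and is not a site with 0 tags. The lowest tag counts in the HOXB13 lists were 3.49 in the control, 3.18 after shRNA, 2.98 with WT and 3.17 with G84E. A window extends beyond its gene and can reach neighbours. In RefSeq, coding genes were ordered by start position alone, and the gene before and the gene after each member were read. ACLY has KLHL11 and ODAD4, ACACA has AATF and C17orf78, and SCD has PKD2L1 and WNT8B. ELOVL6 has EGF and ENPEP, and the FADS pair has FEN1 and FADS3. This order does not show whether a listed gene lies inside the member or beyond its end. Further genes can lie in a window, and how far each window covers any of them was not determined. No hg19 annotation was used here, so no site is assigned to a promoter, exon or intron.

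The sequences just upstream of the genes are shown for 5 of the 6 genes, at the first start listed, because they are the DNA in which these genes start. They are the 250 bases before a transcription start in RefSeq, on the gene's strand, 5′ to 3′, from the GRCh38.p14 assembly. Because the peaks are in hg19, no peak is placed on them. Capitals mark matches, on either strand, to the letters CCAAT (the NF-Y box) or GGGCGG (an Sp1 box).
ACLY: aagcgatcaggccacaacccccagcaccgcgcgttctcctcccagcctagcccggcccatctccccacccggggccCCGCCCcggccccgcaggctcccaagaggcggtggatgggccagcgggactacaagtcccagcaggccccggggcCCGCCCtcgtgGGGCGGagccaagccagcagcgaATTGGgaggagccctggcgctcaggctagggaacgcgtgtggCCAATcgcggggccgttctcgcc
ACACA: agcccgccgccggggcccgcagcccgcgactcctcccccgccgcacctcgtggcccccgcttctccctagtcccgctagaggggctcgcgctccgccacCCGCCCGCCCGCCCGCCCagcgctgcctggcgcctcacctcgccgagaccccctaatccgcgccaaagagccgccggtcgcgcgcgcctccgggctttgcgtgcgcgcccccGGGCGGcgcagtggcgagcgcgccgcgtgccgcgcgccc
SCD: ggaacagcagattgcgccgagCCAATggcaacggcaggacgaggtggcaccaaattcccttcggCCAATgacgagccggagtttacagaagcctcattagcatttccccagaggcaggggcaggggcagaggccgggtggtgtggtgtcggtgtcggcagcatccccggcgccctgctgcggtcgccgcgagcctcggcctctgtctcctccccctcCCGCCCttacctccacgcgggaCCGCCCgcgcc
ELOVL6: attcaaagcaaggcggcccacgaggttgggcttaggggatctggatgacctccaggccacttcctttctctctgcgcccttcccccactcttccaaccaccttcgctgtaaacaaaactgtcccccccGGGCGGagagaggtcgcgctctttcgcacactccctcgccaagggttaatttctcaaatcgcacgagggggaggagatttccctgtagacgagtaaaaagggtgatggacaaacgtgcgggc
FADS1: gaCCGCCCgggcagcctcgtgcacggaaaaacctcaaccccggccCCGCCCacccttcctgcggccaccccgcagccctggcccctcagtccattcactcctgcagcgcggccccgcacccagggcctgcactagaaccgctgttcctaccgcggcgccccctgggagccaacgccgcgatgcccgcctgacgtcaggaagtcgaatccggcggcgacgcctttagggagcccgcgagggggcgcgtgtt
SCD held CCAAT at -229 to -225 and at -186 to -182, counted from the start, and ACLY held it at -23 to -19 and, on the opposite strand, at -65 to -61. CCAAT was present in 32% of 35116 RefSeq promoters read over the same length, and GGGCGG in 42.6%. GGGCGG was found in all 5 sequences shown and at a FADS2 start, but neither at the other FADS2 start nor at the third ACACA start. The HOXB13 motif was searched as CCAATAAA, whose first letters are also the CCAAT box, and was found in 0.863% of all promoters. An SREBP element searched as TCACNCCAC was found in 0.883%, and the E-box CACGTG in 6.34%. None of these 3 was found in the 10 upstream sequences of the 6 genes. These are matches of letters in short windows and describe the sequence alone.

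The ACACA window, the longest, held the most HOXB13 peaks, also per length. Control LNCaP cells had 54 HOXB13 peaks in the windows. Of these, 31 were at ACACA, 8 at ELOVL6, 7 at FADS1/FADS2, 5 at ACLY and 3 at SCD. Per length, ACACA had 7.21 peaks per 100 kb, FADS1/FADS2 4.12, ELOVL6 3.2, ACLY 2.94 and SCD 2.31, where the whole control list averaged 4.57 over the genome size in the file headers. That size is 2000000000 bp, while a window counts all its bases. A larger size would lower every whole-list average, so which windows stand above it depends on the size. HDAC1 and open chromatin were distributed differently. FADS1/FADS2 had 10 of the 22 HDAC1 peaks, 5.88 per 100 kb against 0.832 for the whole HDAC1 list, and ACLY had 13 of the 41 control ATAC-seq peaks, 7.65 per 100 kb against 1.85. The windows were placed around genes, while the whole lists also cover gene-poor sequence, so these densities are descriptions.

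**Figure D1:**
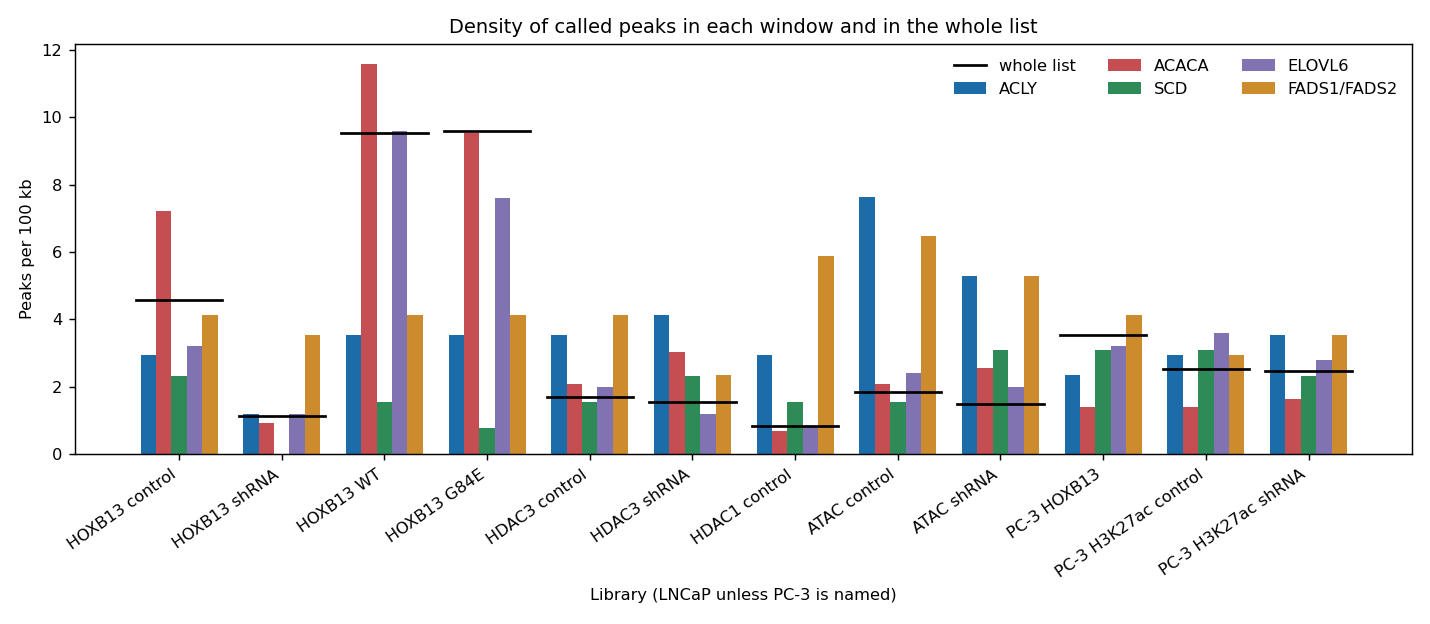
Called peaks per 100 kb (vertical axis) in each of the 5 windows (coloured bars) for the 12 libraries, with the whole list, over 2000000000 bp, as a black line. ACACA stands highest in the control, WT and G84E HOXB13 libraries, at 7.21, 11.6 and 9.53 peaks per 100 kb, while ACLY and FADS1/FADS2 stand highest in ATAC-seq.

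Peaks of the 10 fixed-width lists (HOXB13, HDAC3, HDAC1 and ATAC-seq) that overlapped were joined into 198 sites, numbered along the chromosome within each window. ACACA had 89 sites, ELOVL6 47, FADS1/FADS2 27, ACLY 25 and SCD 10. A single list accounted for 95 of them, and 13 were called in 5 or more lists, counts not made over the whole lists. Of those 13, 6 were in the ACLY window and 4 in the FADS1/FADS2 window.

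**Figure D2:**
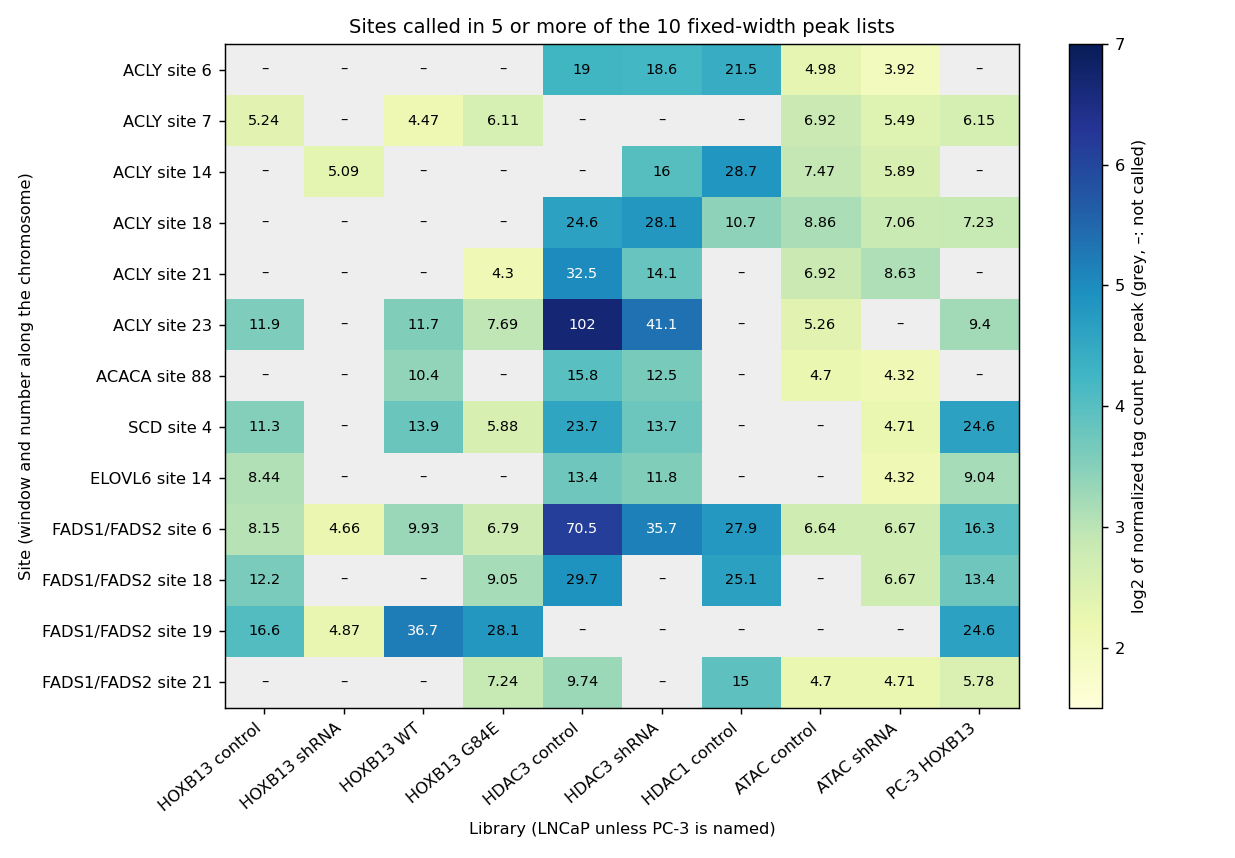
Normalized tag count (number and colour, log2 scale) of the 13 sites called in 5 or more of the 10 fixed-width lists, by library. HDAC3 in control cells was highest at ACLY site 23 (102) and FADS1/FADS2 site 6 (70.5), and the HOXB13 shRNA column has values at 3 of the 13 sites.

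Nearly all HOXB13 peaks at the 6 genes were no longer called after the knockdown. Of the 54 control peaks, 2 were called again (3.7%, Wilson 95% interval 1.02 to 12.5%), both in the FADS1/FADS2 window, against 1.48% of the whole control list. None of the 31 ACACA, 8 ELOVL6, 5 ACLY or 3 SCD peaks was called again. At FADS1/FADS2 site 19 (chr11:61597762-61598411) HOXB13 had 16.6 in the control and 4.87 with the shRNA, a log2 ratio of -1.77 (counting interval -2.53 to -1.05), and the peaks overlapped by 13 bp only. At FADS1/FADS2 site 6 (chr11:61559404-61560641) it had 8.15 and 4.66, a log2 ratio of -0.81 (-1.68 to 0.05), with 173 bp of overlap. When peak centres had to lie within 100 bp, no control peak was called again. With equal numbers of peaks, 1 of 13 was (7.69%). The whole knockdown list was shorter than the control list, with 22864 against 91430 peaks, and held 2.13% against 9.17% of its tags in peaks. Of the 15 peaks in the knockdown library 13.3% met a control peak (whole list 5.92%), and the 15 tag counts were 4.03 to 6.36.

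Re-expressed HOXB13 was called at 57.4% of the control peaks with either form, and also at many sites the control list did not hold. With equal numbers of peaks, the share of control peaks was 40.7% for WT (22 of 54) and 42.6% for G84E (23 of 54), with no whole-list share at this setting. WT met 31 of the 54 control peaks (57.4%, 44.2 to 69.7%) and G84E also met 31 (57.4%), against 67.4% and 63.2% of the whole control list. WT had 89 peaks in the windows and G84E 74. Of the WT peaks 34.8% met a control peak (whole list 32.3%), and of the G84E peaks 41.9% did (whole list 30.1%). At ELOVL6 the number of peaks was 8 in the control, 24 with WT and 19 with G84E, and 3 of the 8 control peaks were met by each form. At ACACA it was 31, 50 and 41, with 20 control peaks met by WT and 19 by G84E. At ACLY the counts were 5, 6 and 6, and at FADS1/FADS2 they were 7 in each. SCD had 3, 2 and 1. Sites with a WT or G84E peak and no control HOXB13 peak numbered 75, of which 36 were at ACACA and 29 at ELOVL6, the 2 longest windows, and 26 of the 75 had both forms. Sites were not joined over the whole lists, so these counts have no whole-list share and are descriptions. The whole WT and G84E lists, with 190879 and 191796 peaks, were longer than the control list, with 91430, and a larger share of their tags lay in peaks (17.12% and 15.64% against 9.17%). The part of this in the added sites was not tested.

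The strongest HOXB13 sites of the 6 genes were in the ACACA window. ACACA site 63 (chr17:35672483-35672953) had tag counts of 51.2 in the control, 38 with WT and 25.1 with G84E. ACACA site 54 (chr17:35631412-35631744) had 50.6, 49.4 and 33.5. Both had their lowest value with G84E, and neither was called after shRNA. WT was below the control at site 63, with a log2 ratio of -0.43 (-0.75 to -0.11). At site 54 WT and the control were within counting error, with a log2 ratio of -0.03 (-0.34 to 0.27) and 0.05 by density. Site 63 was named for the highest control value of the window and site 54 for the highest WT value, which favours those libraries. ACACA site 39 (chr17:35553229-35553551) was higher with either form than in the control, from 11.9 in the control to 35.5 with WT and 35.8 with G84E. Its log2 ratios to the control, 1.58 (1.06 to 2.11) for WT and 1.59 (1.08 to 2.12) for G84E, were the highest among the shared peaks. The lowest ratio for WT was at ACACA site 14 (chr17:35455877-35456309), from 11.3 to 4.47 (log2 ratio -1.34, -2.24 to -0.50), where G84E had 6.11 and PC-3 HOXB13 15.2. The lowest ratio for G84E was at ACACA site 63, a log2 ratio of -1.03 (-1.38 to -0.68). Sites of 1 window thus differed in opposite directions between the same libraries.

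Outside ACACA, the highest control values were 16.6 at FADS1/FADS2 site 19, 12.2 at ACLY site 5, 11.3 at SCD site 4 and 10.2 at ELOVL6 site 39. FADS1/FADS2 site 19 reached 36.7 with WT and 28.1 with G84E, above the control in both (WT over control log2 ratio 1.14, 0.70 to 1.61), and carried a PC-3 HOXB13 peak of 24.6 with no HDAC3, HDAC1 or ATAC-seq peak. ACLY site 5 (chr17:40004911-40005356) had 12.2 in the control, 11.2 with WT and 7.69 with G84E. ELOVL6 site 39 (chr4:111118527-111118899) had 10.2, 12.2 and 8.37. Over the shared peaks the median log2 ratio to the control was 0.21 for WT (31 peaks, whole list 0.17) and 0.03 for G84E (31 peaks, whole list 0.02).

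**Figure D3:**
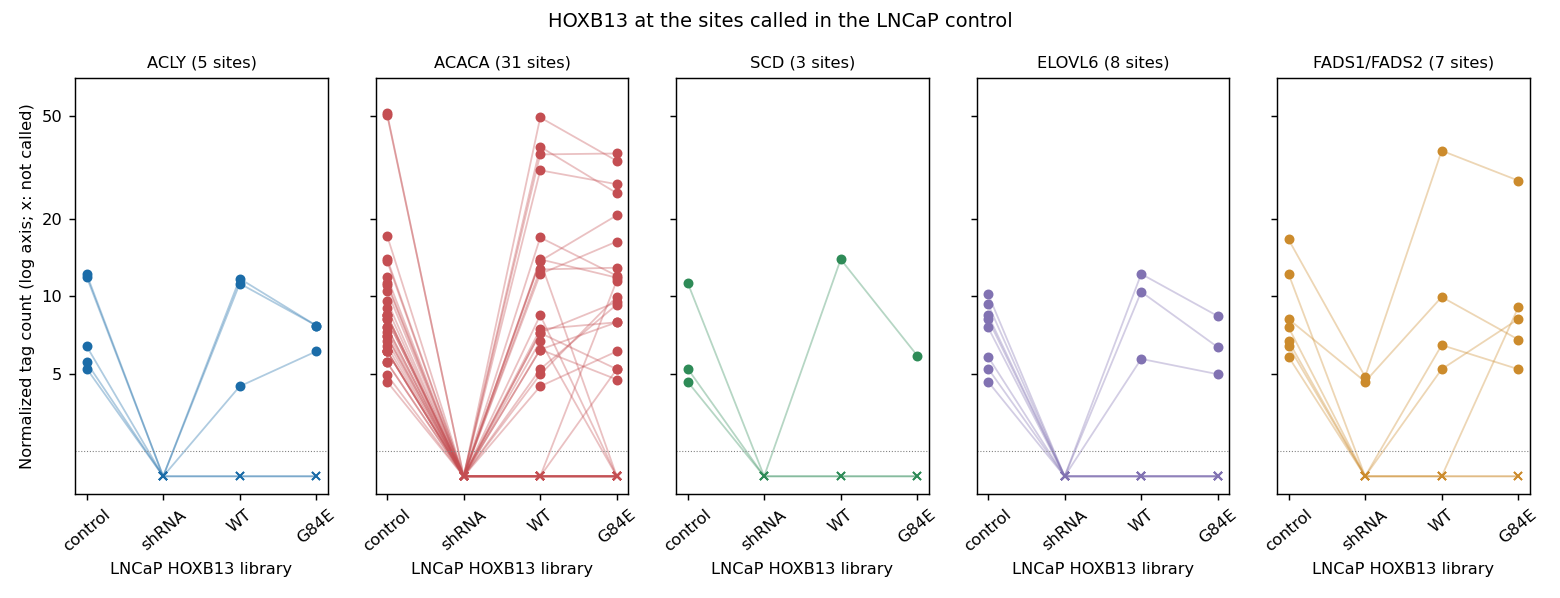
HOXB13 normalized tag count (vertical log axis) of each site with a control peak, in the control, shRNA, WT and G84E libraries of LNCaP, with 1 panel per window and crosses at the bottom for sites not called. After shRNA values remain at 2 FADS1/FADS2 sites, 4.66 and 4.87, and the highest points in each of the control, WT and G84E libraries are at ACACA.

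The WT and G84E forms shared 54 peaks, with tag counts that differed in both directions. Of the WT peaks 54 of 89 met a G84E peak (60.7%, 50.3 to 70.2%, whole list 55.0%), and of the G84E peaks 54 of 74 met a WT peak (73%, 61.9 to 81.8%, whole list 54.8%). The median log2 ratio of G84E over WT at the 54 shared peaks was -0.08 (-0.37 to 0.09), and over the whole list it was -0.13, so that relative to the whole list it was 0.06. G84E was at least 1.5-fold higher at 6 of the 54 (whole list 6.31%) and at least 1.5-fold lower at 7 (whole list 15.5%). By window, G84E was lower at 9 of 11 shared ELOVL6 peaks (median -0.40) and higher at 17 of 33 ACACA peaks (median 0.01), where over the whole list 59.9% of shared peaks were lower and 39.6% higher. The counting interval lay below 0 at 4 peaks and above 0 at 4, a count not made over the whole list.

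The lowest ratio of G84E to WT was at SCD site 4 (chr10:102124527-102124997). This site had HOXB13 tag counts of 11.3 in the control, 13.9 with WT and 5.88 with G84E, and G84E over WT gave a log2 ratio of -1.24 (-1.97 to -0.55). It was the only HOXB13 peak with G84E in the SCD window, and it also carried HDAC3, ATAC-seq after shRNA (4.71) and the strongest PC-3 HOXB13 peak of that window (24.6). The highest ratio was at FADS1/FADS2 site 12 (chr11:61584797-61585135), from 6.7 with WT to 14.9 with G84E (log2 ratio 1.15, 0.49 to 1.86). That site had no HOXB13 peak in the control.

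HDAC3 was called at 29 peaks in the windows in control cells, 9 at ACACA, 7 at FADS1/FADS2, 6 at ACLY, 5 at ELOVL6 and 2 at SCD. Of these, 7 met a control HOXB13 peak (24.1%, 12.2 to 42.1%, whole list 36.1%). Seen from HOXB13, 7 of the 54 control peaks met HDAC3 (13%, whole list 13.4%). ATAC-seq peaks met 10 of the 29 HDAC3 peaks (34.5%, whole list 41.0%) and 7 of the 54 HOXB13 peaks (13%, whole list 10.3%). HDAC1 met control HOXB13 at 1 of its 22 peaks (4.55%, 0.807 to 21.8%, whole list 10.7%), which was in the FADS1/FADS2 window and overlapped by less than 50% of the shorter peak, and it met HDAC3 at 9 (40.9%, whole list 42.4%).

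Joined into sites, 8 held both HOXB13 and HDAC3 in control cells, and these peaks overlapped each other at all of them except FADS1/FADS2 site 6. The strongest was ACLY site 23 (chr17:40124845-40125315), with HDAC3 at 102 in the control and 41.1 after HOXB13 shRNA. HOXB13 there was 11.9 in the control, 11.7 with WT and 7.69 with G84E, PC-3 HOXB13 was 9.4, and ATAC-seq was 5.26 in the control and not called after shRNA. FADS1/FADS2 site 6, called in all 10 lists, had HDAC3 at 70.5 and 35.7 and HDAC1 at 27.9. HOXB13 there was 8.15, 4.66, 9.93 and 6.79 in the control, shRNA, WT and G84E libraries. The highest ATAC-seq peak of the site was 6.64 in the control and 6.67 after shRNA, but these were different peaks. The control peak that overlapped the 6.67 peak had 5.53. Its PC-3 HOXB13 tag count was 16.3. This place was called in every kind of library, although its peaks do not all overlap each other directly. The control HOXB13 peak (chr11:61559658-61559948) and the control HDAC3 peak (chr11:61560119-61560589) were joined only through peaks of other libraries. Of all 91430 control HOXB13 peaks, 48 overlapped a peak in each of the 9 other fixed-width lists, 0 of them in these windows. SCD site 4 had HDAC3 at 23.7 and 13.7, and ELOVL6 site 14 (chr4:110980804-110981461) at 13.4 and 11.8, beside control HOXB13 of 11.3 and 8.44.

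At the other 4 sites with both, HDAC3 was not called after shRNA. FADS1/FADS2 site 18 (chr11:61595375-61596143) had HDAC3 at 29.7, HDAC1 at 25.1 and control HOXB13 at 12.2. ACACA site 65 (chr17:35679118-35679620) had HDAC3 at 25 and HOXB13 at 9.02 in the control, 12.2 with WT and 16.3 with G84E. ACACA site 63 had HDAC3 at 22.3 under the strongest control HOXB13 peak of the 6 genes. ELOVL6 site 36 (chr4:111115007-111115513) had HDAC3 at 16.7, control HOXB13 at 9.31 and ATAC-seq at 4.43 and 5.89.

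Several HDAC3 sites had no control HOXB13 peak. ACLY site 18 (chr17:40086377-40086912) had HDAC3 at 24.6 and 28.1, HDAC1 at 10.7, ATAC-seq at 8.86 and 7.06 and PC-3 HOXB13 at 7.23. ACLY site 6 (chr17:40020800-40021462) had HDAC3 at 19 and 18.6 and HDAC1 at 21.5. These were the ACLY sites where HDAC3 differed least between the libraries. ACLY site 21 (chr17:40117646-40118214) had HDAC3 at 32.5 and 14.1, with a G84E peak of 4.3. ACACA site 88 (chr17:35810055-35810573), the only ACACA site in 5 lists, had HDAC3 at 15.8 and 12.5 and a WT peak of 10.4. FADS1/FADS2 site 21 (chr11:61638207-61639014) had HDAC3 at 9.74 in the control only, and HDAC1 at 15.

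After HOXB13 shRNA, 14 of the 29 control HDAC3 peaks were called again (48.3%, 31.4 to 65.6%, whole list 47.7%). They were 5 of 9 at ACACA, 4 of 6 at ACLY, 3 of 7 at FADS1/FADS2, 1 of 5 at ELOVL6 and 1 of 2 at SCD. Seen from the knockdown, 15 of its 30 HDAC3 peaks met a control peak (50%, whole list 52.2%). The tag count was lower after shRNA at 13 of the 14, with a median log2 ratio of -0.40 (-0.98 to -0.03), and over the whole list 80.3% of shared peaks were lower, with a median of -0.44. It was at least 1.5-fold lower at 6 of the 14 (whole list 39.1%) and at least 1.5-fold higher at 0 (whole list 2.66%). HDAC3 peaks were 471 bp wide in the control list and 365 bp wide after shRNA, with estimated fragment lengths of 146 and 364 bp. As tag density, tags per bp, the median was -0.04, with 7 peaks higher and 7 lower, and relative to the whole list the median of tag counts was 0.04. With peak centres within 100 bp, 9 of the 29 control HDAC3 peaks (31%) were called again, with no whole-list share at this setting.

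The 3 lowest ratios were at the 3 shared sites with the highest control tag count, which is also the denominator of the ratio. By tag count after shRNA, the 3 highest were ACLY site 23 (41.1), FADS1/FADS2 site 6 (35.7) and ACLY site 18 (28.1). ACLY site 23 had a log2 ratio of -1.31 (-1.66 to -0.97) by tag count and -0.94 by density. ACLY site 21 had -1.20 (-1.82 to -0.61) and -0.84. FADS1/FADS2 site 6, from 70.5 to 35.7, had -0.98 (-1.37 to -0.60) and -0.61. SCD site 4 had -0.79 (-1.45 to -0.15) and -0.42. The only ratio above 0 was at ACLY site 18, 0.19 (-0.33 to 0.73) by tag count and 0.56 by density. The ACLY window thus held both the lowest and the highest ratio of tag count.

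**Figure D4:**
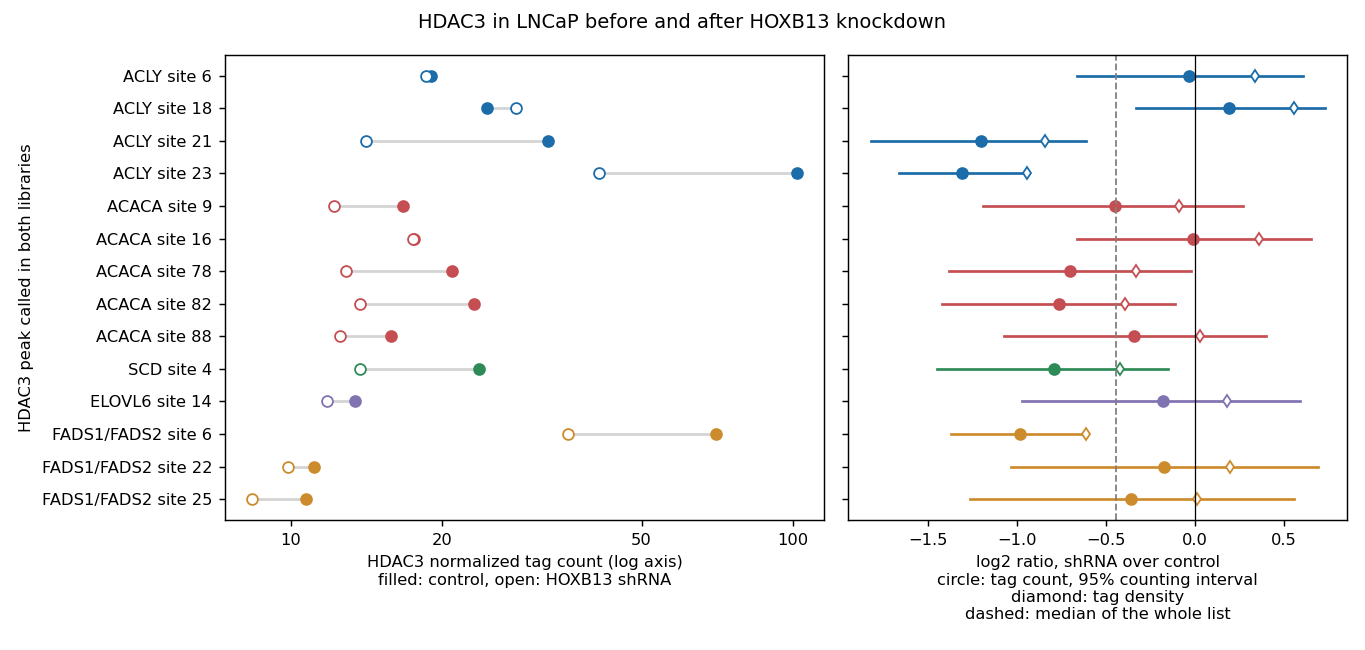
HDAC3 at the 14 peaks called in both LNCaP libraries, with tag counts on the left (log axis, filled for control and open for HOXB13 shRNA) and the log2 ratio on the right (circles with 95% counting intervals, diamonds for tag density, dashed line at the whole-list median of -0.44). ACLY sites 21 and 23 and FADS1/FADS2 site 6 lie farthest to the left, and diamonds lie on both sides of 0.

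HDAC1, mapped in control cells only, was strongest at ACACA site 72 (chr17:35715564-35715968) with a tag count of 37.3, FADS1/FADS2 site 27 (chr11:61684774-61685170) with 33, ACLY site 22 (chr17:40118803-40119119) with 29.4 and ELOVL6 site 37 (chr4:111117667-111118003) with 23.6. None of these 4 sites had a HOXB13 peak in any library. ACLY site 14 (chr17:40074625-40075475), with HDAC1 at 28.7, had HDAC3 after shRNA only (16) and the highest HOXB13 value of the ACLY window in the knockdown (5.09). At SCD the highest HDAC1 value was 14.3, at site 1 (chr10:102106197-102106513).

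The remaining highest values of a library in a window were at sites called in 4 lists or fewer. For HDAC3 after shRNA they were 18.6 at both ACACA site 75 (chr17:35716576-35716940) and ACACA site 83 (chr17:35767238-35767735). At ELOVL6 the value was 16.7 at site 13 (chr4:110979831-110980195), and at SCD it was 14.1 at site 6 (chr10:102131028-102131627). HDAC3 was not called at any of these sites in the control, where ELOVL6 site 13 had HOXB13 at 5.24 and ATAC-seq at 5.81. The highest control HDAC3 value at ELOVL6, 19.5 at site 43 (chr4:111154703-111155173), stood alone. For G84E they were 8.6 at ACLY site 20 (chr17:40115117-40115399), in no other list, and 9.73 at ELOVL6 site 31 (chr4:111077840-111078125), beside 8.69 with WT. For HOXB13 after shRNA they were 5.09 at ACACA site 34 (chr17:35540160-35540641) and 6.36 at FADS1/FADS2 site 1 (chr11:61539832-61540088). At ELOVL6 the value was 5.3 at each of site 30 (chr4:111072040-111072296), site 38 (chr4:111118211-111118484) and site 40 (chr4:111119174-111119876). ACACA site 34 also had 16.9 with WT, 16.3 with G84E and 13.4 in PC-3. ELOVL6 site 38 also had control ATAC-seq at 5.53, and ELOVL6 site 40 had WT at 10.7, HDAC1 at 17.9 and control ATAC-seq at 5.53. ELOVL6 site 30 and FADS1/FADS2 site 1 were in no other list. ATAC-seq after shRNA was highest at SCD site 2 (chr10:102106783-102107291), 6.67 beside 5.26 in the control, where HDAC1 was 13.6.

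Open chromatin was called again at 19 of the 41 control ATAC-seq peaks (46.3%, 32.1 to 61.3%, whole list 50.0%), and 19 of the 38 peaks after shRNA met a control peak (50%, whole list 61.9%). The shared peaks were 5 of 9 at ACACA, 4 of 13 at ACLY, 4 of 11 at FADS1/FADS2, 4 of 6 at ELOVL6 and 2 of 2 at SCD. Their median log2 ratio was 0.11 (-0.34 to 0.41, whole list 0.12) and -0.08 as density, and no single counting interval lay wholly above or below 0. In the better-scoring 50% of each list, 5 of 18 control peaks (27.8%) were called again, and the whole-list share at this setting is not given. The highest values were at FADS1/FADS2 site 9 (chr11:61582632-61582996), 9.96 in the control and 9.03 after shRNA, and at ACACA site 73 (chr17:35716204-35716334), 9.41 and 12.6. The highest ratio was at ACLY site 8 (chr17:40025731-40026095), from 4.15 to 7.46 (0.85, -0.21 to 1.93), and the lowest were at SCD site 8 (chr10:102133025-102133315), from 6.09 to 4.32, and ELOVL6 site 26 (chr4:111040459-111040733), from 6.64 to 4.71, each -0.50. Differences of that size were within counting error at these depths.

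In PC-3, HOXB13 was called at 29 peaks in the windows, 8 at ELOVL6, 7 at FADS1/FADS2, 6 at ACACA, 4 at ACLY and 4 at SCD. Of these, 12 met an LNCaP control HOXB13 peak (41.4%, 25.5 to 59.3%, whole list 27.2%). With centres within 100 bp it was 7 of 29 (24.1%), with no whole-list share at that setting. In a control H3K27ac region lay 15 (51.7%, 34.4 to 68.6%, whole list 34.5%). All 4 SCD peaks did, 5 of 8 at ELOVL6, 4 of 7 at FADS1/FADS2, 1 of 6 at ACACA and 1 of 4 at ACLY. The ACACA window, which had the most HOXB13 peaks in LNCaP, had 1.4 per 100 kb in PC-3, below the 3.54 of the whole list. The strongest PC-3 peak was ELOVL6 site 11 (chr4:110967945-110968335), with a tag count of 32.9 and no peak in any LNCaP list. FADS1/FADS2 site 7 (chr11:61564631-61565027) had 24.6 in PC-3, beside 6.69 in the LNCaP control, 6.46 with WT and 5.21 with G84E. ACLY site 7 (chr17:40021579-40022135) had 6.15, beside 5.24, 4.47 and 6.11.

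H3K27ac regions of PC-3 were mostly called again after HOXB13 shRNA, and tag counts at the shared loci were higher about as often as over the whole list. Of the 29 control regions, 25 were called again (86.2%, 69.4 to 94.5%, whole list 79.4%). Regions linked by overlap were summed into 32 loci, of which 24 were called in both libraries, 4 in the control only and 4 after shRNA only. The summed tag count was higher after shRNA at 18 of the 24 and lower at 6, with a median log2 ratio of 0.30 (0.04 to 0.51). Over the whole list 70.1% of shared loci were higher and 29.7% lower, with a median of 0.27. At least 1.5-fold higher were 3 (whole list 26.0%), and at least 1.5-fold lower were 3 (whole list 7.55%). Relative to the whole-list median, 12 of the 24 were above. The share of tags in regions was 38.87% in the control and 46.24% after shRNA, and its part in the higher tag counts was not tested.

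All 5 shared loci were higher after shRNA at FADS1/FADS2, as were all 4 at ACACA and all 3 at SCD, while ACLY had 3 higher and 2 lower and ELOVL6 had 3 higher and 4 lower, against 70.1% higher over the whole list. Above the whole-list median were 4 of 5 at FADS1/FADS2, 3 of 4 at ACACA, 1 of 3 at SCD, 2 of 5 at ACLY and 2 of 7 at ELOVL6. The counting interval lay above 0 at 10 loci, 4 of them at FADS1/FADS2, and below 0 at 2, 1 each at ACLY and ELOVL6. These intervals were not centred on the whole-list median of 0.27, and the same count was not made over the whole list. At FADS1/FADS2 the locus over site 6 (chr11:61558635-61562009) went from 431.7 to 630.1 in tag count, a log2 ratio of 0.55 (0.40 to 0.70) over nearly the same covered length, 3.33 kb in both. The widest FADS1/FADS2 locus (chr11:61581735-61585985) went from 141.7 to 208.5 (0.56, 0.30 to 0.82), with 4.21 kb covered in the control and 3.9 kb after shRNA. The strongest SCD locus, also the widest there (chr10:102129164-102135478), had 519.9 and 582 (0.16, 0.02 to 0.31). The locus over SCD site 4 had 81.5 and 96.9 (0.25, -0.12 to 0.62).

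The highest ratio was at ACACA (chr17:35765609-35768268), from 41.4 to 91.7 (1.15, 0.69 to 1.61), with 2.36 and 2.51 kb covered. The widest ACACA locus (chr17:35804139-35811173) had 149.7 and 176.7 (0.24, -0.03 to 0.51). The widest ACLY locus (chr17:40073762-40076330), over site 14, went from 64.8 to 113.1 (0.80, 0.43 to 1.19), with 1.78 kb covered in the control and 2.57 kb after shRNA, and by density the log2 ratio was 0.27. The lowest ratio was at ELOVL6 (chr4:111007783-111011058), from 56.8 to 17 (-1.74, -2.47 to -1.06). There the covered length went from 3.28 to 1.28 kb and the log2 ratio by density was -0.38. The widest ELOVL6 locus (chr4:111083846-111087744) had 114.3 and 101.3 (-0.17, -0.51 to 0.16).

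**Figure D5:**
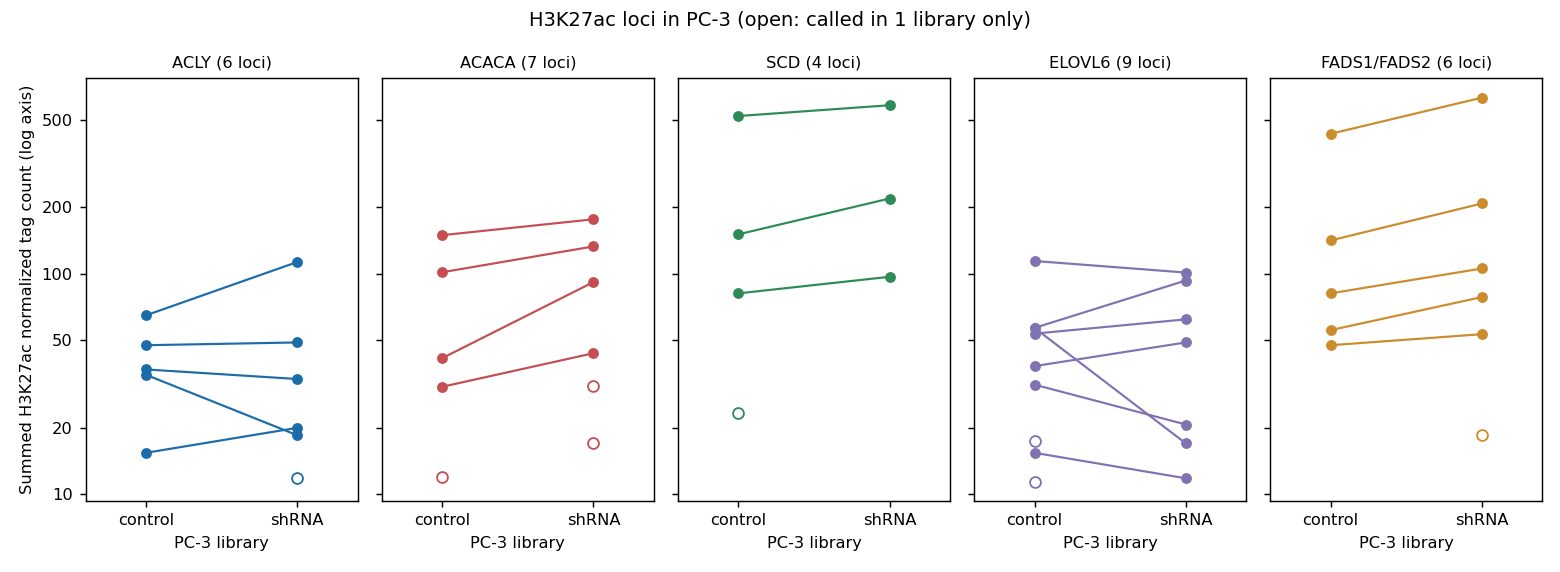
Summed H3K27ac normalized tag count (vertical log axis) of each PC-3 locus in the control and after HOXB13 shRNA, with 1 panel per window, lines joining loci called in both libraries and open points for loci called in 1. All lines go up at ACACA, SCD and FADS1/FADS2, while lines cross at ELOVL6, where 1 locus goes from 56.8 to 17.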

How the data were processed

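ChIP-seq and ATAC-seq peak lists of 12 of the 16 samples were used, 1 library per group, with groups taken from the labels. The submitters' processing notes name Bowtie2, HOMER 4.2 and hg19. HOMER findPeaks was run by the authors on each library without input, at a false discovery rate of 0.001, per the file headers. The 10 factor and ATAC-seq lists hold peaks of 1 width per library, called at 4-fold over the local 10000 bp. The 2 H3K27ac lists hold stitched windows of 1000 bp. The signal used, the deposited normalized tag count, is scaled to 10000000 tags per the file headers. The authors' peak score served only for ranking, and their deposited fold (a ratio to the local 10000 bp) entered no result.

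An overlap of 1 bp counted as shared, and where several met, the highest tag count was taken. Tags were back-calculated from the totals in the headers. Among values under 10, 100% came out whole within 0.1 tags. Shares have Wilson 95% intervals, ratios exact Clopper-Pearson intervals from the tags, and medians binomial order-statistic intervals. All cover counting error or the spread among peaks only, and the libraries held 13.5 M to 47.2 M tags. Overlap and interval functions were tested on simulated data. Python 3.11.15, numpy 2.4.6, pandas 2.3.3 and scipy 1.17.1 were used.

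The members, windows and comparisons were chosen with earlier results of these data known. Named sites were those in 5 or more lists, the highest of each library in each window, the sites with HDAC3 and HOXB13 in control cells, and the largest rise and fall of each pair. For H3K27ac they were the widest locus of each window and the largest rise and fall. Alternatives were other overlap rules, the better-scoring 50% of every list, equal numbers of peaks, windows narrowed by 20 kb, tag density and centring.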

Additional observations from a re-analysis of the deposited data

How the results depend on the processing

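Of the values recomputed under other settings, 57 stayed within the interval of the main value, 12 moved beyond it and 2 changed sign. Intervals of small counts are wide, so a value within them can still differ much. The HDAC3 median of -0.40 (-0.98 to -0.03) became -0.04 by density and was counted among the 57. With peak centres within 100 bp (500 bp for H3K27ac), the share of control HOXB13 peaks called again after shRNA was 0%, that met by WT 40.7%, that of HDAC3 peaks called again 31%, that of HDAC1 peaks with HOXB13 0% and that of PC-3 HOXB13 peaks with LNCaP HOXB13 24.1%. With equal numbers of peaks, WT met 40.7% and G84E 42.6% of the control peaks, and HDAC1 with HOXB13 was 0%, as it was when the overlap had to cover 50% of the shorter peak. In the better-scoring 50% of every list, 27.8% of ATAC-seq peaks and 68.4% of H3K27ac regions were called again. Centred on the whole list, the median log2 ratio was 0.06 for G84E over WT and 0.04 for HDAC3, both with the sign reversed, and 0.04 for H3K27ac, since the whole list moved alike. Whole-list shares under the other settings are not given, so moves of shares cannot be called particular to these genes. The cause of the other moves was not tested. No paired analysis was possible because each group held 1 library. Depth limits the weak peaks most, since 1 tag was worth 0.212 to 0.74 in the tag counts, and a site that was not called has no value.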
